A study of Mus musculus with 16 samples.

Results

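Meiotic chromosome and recombination genes were followed across 12 RNA libraries from mouse male germline stem cells grown in culture (GSCs), counterparts of the stem cells that sustain sperm production. The set was named by symbol: 34 genes of the synaptonemal complex, cohesin, double-strand break formation, strand exchange, crossover formation and later spermatocyte regulation. Of these, 32 symbols were rows of the deposited tables, out of 27128 genes in all. The other 2, Rec8 and Ccnb1ip1, were listed under older names and are given beside the set without being counted in it. A mean of at least 1 CPM (read counts scaled to library size, with TMM factors between libraries) was reached by 31 of the 32 genes, and by 14301 genes in all. The exception was Spo11, with 1 to 13 counts per library.

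All libraries came from germ cells of B6;CBA-Tg(Pou5f1-EGFP)2Mnn/J mice, taken at postnatal day 5.5 and sorted as Oct4-positive and KIT-negative before culture with GDNF, bFGF and EGF in serum-free StemPro-34 medium. In this strain GFP reports regulatory sequence of Pou5f1 (Oct4). The feeder-removal experiment had cells on mouse embryonic fibroblast (MEF) feeders (day 0) and cells 4 and 9 days after their transfer to Matrigel, a basement membrane extract. In the density experiment, cells were epithelial-like on 0.1 µg/cm2 of Matrigel and mesenchymal-like on 10 µg/cm2. The sorting experiment split cells grown at 10 µg/cm2 into fractions by GFP brightness, called GFP-low, GFP-mid and GFP-high. In the inhibitor experiment, cells on MEF feeders received DMSO, the solvent, or, for 48 hours, UNC0638 at 0.5, 1 or 2 µM. This compound blocks G9a (Ehmt2) and GLP (Ehmt1), enzymes that methylate lysine 9 of histone H3. Because every group is a single library, the differences below lack a replicate check and carry no p-values. The labels do not say whether the libraries came from 1 GSC line or several.

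In meiosis, homologous chromosomes pair along a protein axis built on cohesin, a ring complex with meiosis-specific subunits. Programmed DNA breaks made by SPO11 are repaired with the meiotic recombinase DMC1, the synaptonemal complex zips the homologs together, and MutS and MutL proteins turn some repair intermediates into crossovers. Germline stem cells divide by mitosis, yet many meiotic genes are known to be transcribed in spermatogonia before meiosis begins. In mouse cells several of these genes are known targets of a Polycomb-type repressor that contains E2F6, MGA, MAX, PCGF6 and L3MBTL2, which recognises E2F-type and E-box motifs, and with which G9a and GLP have been found.

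Promoters are shown first for Sycp3, Hormad1, Tex12 and Syce2, because they were the members whose start-site windows held both motifs. RefSeq promoter sequences (assembly GRCm38.p6) were matched by symbol for 27 of the 32 genes, and the 250 bases before each gene start were searched on both strands. The E2F-type motif TTCCCGC was present in 9 of their 32 windows (28.1%), those of 8 genes (Brca2, Hormad1, Msh5, Prdm9, Smc1b, Syce2, Sycp3 and Tex12), against 3.82% of 32851 windows of all genes. The E-box CACGTG was present in 8 windows, those of 7 genes (Boll, Hormad1, Stag3, Syce2, Sycp1, Sycp3 and Tex12), against 6.02% of all windows. Both motifs were present in 5 windows (15.6%), those of 4 genes, against 0.338% of all windows. The motif CNCCTCAG, of the type bound by the meiotic factor STRA8, was present in 4 windows (12.5%), those of Msh5, Prdm9, Syce2 and Tcfl5, against 6.42% of all windows. A match describes letters in the window and is not a binding site. In the sequences, 5′ to 3′ on the strand of the gene and ending at its start, capitals mark CACGTG and TTCCCGC (read here as its reverse complement).
Sycp3, chr10:88459337-88459586, plus strand: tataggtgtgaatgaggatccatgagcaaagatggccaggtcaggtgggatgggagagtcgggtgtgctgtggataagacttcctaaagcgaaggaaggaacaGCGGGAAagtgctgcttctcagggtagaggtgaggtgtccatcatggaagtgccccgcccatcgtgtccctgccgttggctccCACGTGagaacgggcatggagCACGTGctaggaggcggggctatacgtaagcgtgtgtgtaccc
Hormad1, chr3:95559427-95559676, plus strand: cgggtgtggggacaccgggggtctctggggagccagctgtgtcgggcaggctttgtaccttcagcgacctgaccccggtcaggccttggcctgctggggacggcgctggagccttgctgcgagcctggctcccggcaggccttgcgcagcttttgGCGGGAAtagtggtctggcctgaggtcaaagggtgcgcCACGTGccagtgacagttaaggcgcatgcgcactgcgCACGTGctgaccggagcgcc
Tex12, chr9:50561269-50561518, minus strand: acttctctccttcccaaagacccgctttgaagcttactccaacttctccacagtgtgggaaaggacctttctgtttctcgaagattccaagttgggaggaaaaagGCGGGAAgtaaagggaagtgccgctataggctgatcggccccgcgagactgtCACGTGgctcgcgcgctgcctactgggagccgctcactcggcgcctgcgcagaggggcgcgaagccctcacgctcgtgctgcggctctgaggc
Syce2, chr8:84872008-84872257, plus strand: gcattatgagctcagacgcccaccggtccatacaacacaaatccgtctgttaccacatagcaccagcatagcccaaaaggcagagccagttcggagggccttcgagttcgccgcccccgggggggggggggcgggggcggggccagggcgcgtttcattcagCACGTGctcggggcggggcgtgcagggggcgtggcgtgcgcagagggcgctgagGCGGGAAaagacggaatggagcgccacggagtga
The E2F-type match began 147 bases before the start in Sycp3, 95 in Hormad1, 145 in Tex12 and 34 in Syce2. The E-boxes began 64 and 43 bases before the start in Sycp3 and 57 and 20 in Hormad1, while Tex12 had 1 at 93 and Syce2 had 1 at 88. The 2 kinds of motif did not overlap in these windows.

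Most members were well expressed. To compare genes, TPM was used, a level that is scaled to gene length as well as to library size: 31 of 32 genes had a median of at least 1 TPM over the 12 libraries, 24 (75.0%) at least 10 and 7 (21.9%) at least 100. Among all genes that passed the filter these shares were 92.7%, 57.7% and 13.1%. The highest median belonged to Sycp3, a structural protein of the axis and lateral elements, at 290.4 TPM. It was followed by the central-element gene Syce2 at 230.7 TPM and the cohesin core gene Smc3 at 172 TPM. The lowest medians were those of Spo11, the break-making transesterase, at 0.68 TPM, and Prdm9, the methyltransferase that sets break sites, at 1.26 TPM.

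Levels differed within most roles. In the synaptonemal complex, the transverse filament gene Sycp1 had a median of 107.7 TPM, the central-element genes Syce1 and Tex12 had 93.8 and 91.4 TPM, and the lateral-element gene Sycp2 had 8.88 TPM. The meiotic cohesin genes Stag3 and Smc1b stood at 115.9 and 97.1 TPM, above Rad21 and Smc1a, the somatic kleisin and SMC subunits, at 77.7 and 48.7 TPM. The spread of each over libraries crossed the next: Smc1b ranged from 69.3 to 142.7 TPM and Rad21 from 46.1 to 117.1 TPM. Rec8, the meiotic kleisin, had a median of 7.31 TPM and a range of 5.09 to 22.8 TPM. Among break and axis genes, the remodelling ATPase gene Trip13 had 106.7 TPM, its substrate Hormad1 62.2 TPM and Mei1, needed for break formation, 6.30 TPM. In strand exchange, Mnd1 and Psmc3ip, whose products act as a heterodimer with DMC1, had 76.8 and 56.9 TPM, whereas Dmc1 itself had 13.5 TPM. Tex15, Brca2 and Brca1, which act in loading recombinases, lay between 17.9 and 29.1 TPM. Of the crossover genes, the X-linked Tex11 had 120.7 TPM and the exonuclease gene Exo1 65.9 TPM, while the MutS genes Msh5 and Msh4 and the MutL gene Mlh3 had 5.82, 3.64 and 5.49 TPM. Ccnb1ip1, a crossover ubiquitin-ligase gene, had 49.4 TPM. The later regulators Cpeb1, Hspa2, Boll and Tcfl5 had medians of 25.1 to 41.3 TPM, and the meiotic cyclin gene Ccna1 had 3.67 TPM.

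**Figure D1:**
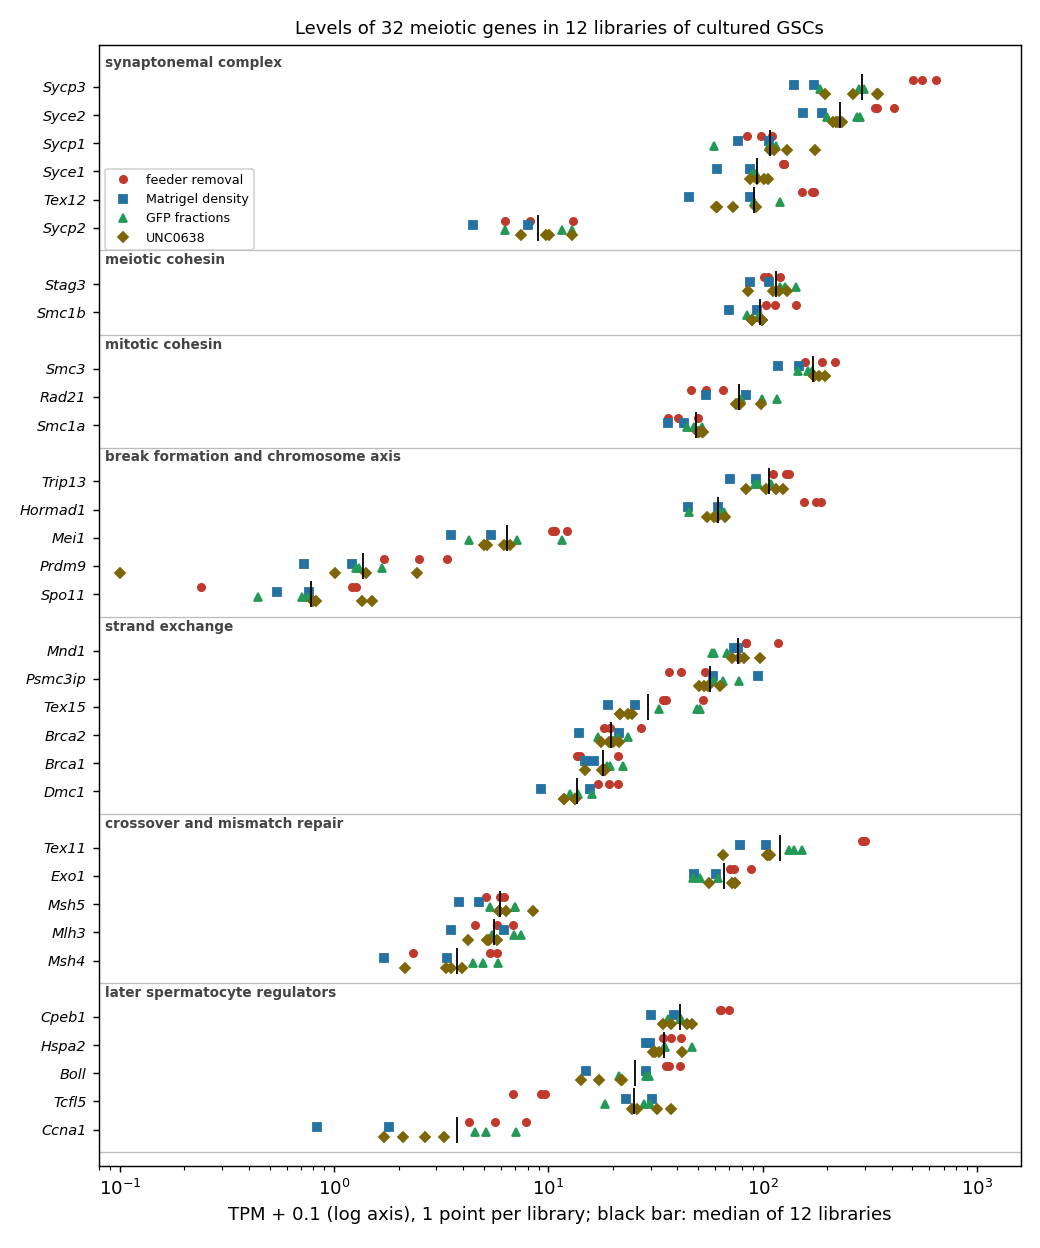
TPM + 0.1 on a log axis for the 32 genes, grouped by role; each point is 1 of 12 libraries, coloured by experiment, and the black bar is the median. Sycp3 and Syce2 have the highest medians and Spo11 and Prdm9 the lowest, and the feeder-removal libraries lie to the right of all others for Sycp3, Syce2, Tex12, Hormad1 and Tex11.

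Library totals ranged from 4335185 to 12019651 expected counts. Markers fixed for germ cells summed to 4377 to 6733 CPM in every library, with Dazl between 1434 and 2047 CPM. Of 8 spermatid and acrosome markers, 2 passed the filter (Tnp1 and Spaca1), the list summed to 8.28 to 19.9 CPM, and the protamine genes Prm1 and Prm2 were at 0 counts throughout. Markers of Sertoli cells summed to 4.51 to 27.7 CPM and of Leydig cells to 0.907 to 10.9 CPM. Fibroblast markers summed to 4805 CPM in the mesenchymal-like library and 2577 CPM with DMSO, and macrophage markers to 1832, 1675 and 216 CPM in GFP-low, GFP-mid and GFP-high cells, against at most 41.5 CPM in the other 9 libraries. In bulk RNA, fewer cells of a type and less RNA per cell cannot be told apart. Expected counts that were not whole, a sign of reads shared between genes, occurred for Tcfl5 in 12 libraries, Hormad1 in 11, Mnd1 in 3 and Spo11 in 1, so these levels are less certain.

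The 3 libraries of the feeder-removal experiment stood apart for several members. On the CPM scale 8 of 31 genes were higher in all 3 than in any of the other 9 libraries, against 14.4% of all genes: Sycp3, Syce1, Syce2, Tex12, Hormad1, Tex11, Boll and Cpeb1. The 4 genes with both promoter motifs were among them, and so was Boll, with an E-box alone. Brca2, Msh5, Prdm9, Smc1b, Stag3 and Sycp1, each with either an E-box or an E2F-type motif, were not. Tex11 had no matched promoter. A link between the motifs and this split was not tested. Rad21 and Tcfl5 were lower in all 3 than elsewhere, against 13.2% of all genes. The groups of an experiment were not shared with another, so experiment and batch cannot be told apart.

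Sycp3 had 388, 298 and 307 CPM at days 0, 4 and 9, against 96.3 to 211 CPM in the other 9 libraries. Hormad1 had 158, 129 and 137 CPM against 37.9 to 57.7 CPM, so the lowest feeder-removal value was over the highest elsewhere. Tex11 had 559, 548 and 526 CPM against 128 to 293 CPM. For Hormad1 and Tex11, as for Cpeb1 and Tcfl5, the gap between the sets was wider than the spread within the feeder-removal libraries. Tex12 had 89.3, 90.5 and 74.2 CPM against 27.3 to 60.2 CPM, and Syce2 had 179.8, 147 and 136 CPM against 77.5 to 115 CPM. Boll, a translational regulator of the DAZ family, had 13.0, 11.2 and 10.2 CPM against 4.58 to 10.1 CPM, so its sets barely separated. Tcfl5, a transcription factor of spermatocytes, went the other way with 7.78, 10.2 and 10.0 CPM against 20.9 to 43.8 CPM. Rad21 had 109.8, 91.9 and 120.1 CPM against 125 to 227 CPM. With TPM instead, 10 genes were higher in all 3 libraries (Smc1b and Dmc1 were added), against 16.2% of all genes. Tcfl5 kept its gap on that scale, and Rad21 did not (46.1 to 65.0 TPM against 54.4 to 117.1 TPM). Of the 31 measured genes in a list of other meiotic genes, 13 were higher in all 3 libraries on the CPM scale and 15 with TPM, against the 14.4% and 16.2% of all genes given above.

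Day 0 and DMSO both came from feeder cultures without inhibitor and in different experiments. Day 0 belongs to the feeder-removal libraries and DMSO to the others, so this pair is part of the split above and not a separate result. With DMSO, 6 members were at least 2-fold lower than at day 0, against 7.22% of all genes, and 1 was at least 2-fold higher, against 12.2%. On the log2 scale of CPM + 1 the lower ones were Sycp3 at -1.72 (95% interval -1.86 to -1.60), Ccna1 at -1.69, Hormad1 at -1.61 (-1.83 to -1.43), Tex12 at -1.46, Tex11 at -1.43 (-1.54 to -1.34) and Boll at -1.13. The higher one was Tcfl5 at 1.72 (1.40 to 2.31). Here and below, intervals cover the counting error of the read split between 2 libraries, without a pseudocount. Fibroblast markers summed to 199 CPM at day 0 and 2577 CPM with DMSO; their part in these differences was not tested. Centred on the germ cell markers instead, Sycp3 was at -1.43 and Tcfl5 at 2.01, while Boll, at -0.84, was no longer past 2-fold. Those markers themselves ran from -1.87 (Rhox10) to 1.87 (Gfra1) in this comparison.

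Few members differed by 2-fold after removal of the feeders. At day 4, 1 of 31 genes was at least 2-fold higher than at day 0, against 1.25% of all genes, and none was lower, against 1.03%. At day 9 the count was again 1, against 1.62%, and none was lower, against 0.979%. In both cases the gene was Msh4, which forms a clamp with MSH5 on recombination intermediates. Msh4 had 34, 121 and 125 counts, or 4.41, 10.2 and 10.2 CPM, at days 0, 4 and 9. The day 0 library was low and the 2 later ones alike; the log2 ratios were 1.06 (0.66 to 1.81) and 1.05 (0.65 to 1.80). At this level the call depends on the pseudocount: with 5 in place of 1 the ratios were 0.70 and 0.69. The other crossover genes differed less at day 9, with log2 ratios of 0.44 for Mlh3, 0.20 for Exo1, -0.05 for Msh5 and -0.09 for Tex11.

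Smaller shifts differed by role. At day 4, 5 of 6 synaptonemal complex genes were below day 0, against 45.5% of all genes, and 4 had the interval below no change, against 14.5%. Sycp1 had 214, 161 and 174 CPM at days 0, 4 and 9, with log2 ratios of -0.41 (-0.51 to -0.31) and -0.30 (-0.39 to -0.21). Sycp2 differed between the times: it had 27.9, 20.9 and 40.7 CPM, lower at day 4 and higher at day 9, with ratios of -0.40 (-0.68 to -0.14) and 0.53 (0.31 to 0.78). In strand exchange, Mnd1 was below its day 0 level at both times, with 46.2, 32.2 and 30.0 CPM and ratios of -0.50 (-0.73 to -0.30) and -0.60 (-0.83 to -0.41). Its partner Psmc3ip was at 0.51 (0.24 to 0.84) at day 4 and at 0.06 (-0.25 to 0.38) at day 9. Brca1, Tex15 and Brca2 were above day 0 at day 9, with ratios of 0.45 (0.29 to 0.63), 0.45 (0.36 to 0.54) and 0.36 (0.25 to 0.47), and their day 4 intervals included no change. Ccna1 had 52, 56 and 41 counts, with a day 9 ratio of -0.84 (-1.64 to -0.40). Over the 31 genes the median log2 ratio was -0.11 at day 4 and 0.06 at day 9, and over all genes 0.03 and 0.02. Both ratios share the day 0 library.

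Nearly all members were lower in the mesenchymal-like than in the epithelial-like culture, each by less than 2-fold. None of the 31 genes was at least 2-fold higher, against 10.7% of all genes, or lower, against 1.78%. Yet 29 of 31 ratios were below 0, against 54.4% of all genes, and for 23 the interval lay below no change, against 22.0%. The median log2 ratio was -0.36, and that of all genes was -0.06. All 6 synaptonemal complex genes had intervals below no change. Tex12 was the lowest of them, at 51.2 CPM in the epithelial-like and 27.3 CPM in the mesenchymal-like library (-0.88, interval -1.25 to -0.57). Sycp2 had 29.8 and 17.1 CPM (-0.76, -1.24 to -0.37), Syce1 89.9 and 65.2 CPM (-0.46, -0.69 to -0.24) and Sycp1 227 and 169 CPM (-0.42, -0.56 to -0.28).

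The medians of the other roles were below 0 as well, from -0.45 (strand exchange) to -0.26 (mitotic cohesin). Among crossover genes Mlh3 had 21.8 and 12.8 CPM (-0.73, -1.29 to -0.27), and in strand exchange Dmc1 had 21.6 and 13.3 CPM and Psmc3ip 50.9 and 31.9 CPM, both at -0.66. Rad21, shared by all dividing cells, was lower as well, at 184 and 125 CPM (-0.55, -0.72 to -0.39). The members nearest to no change were Mnd1 (-0.03), Brca1 (-0.07) and Hspa2, a heat shock protein gene of spermatocytes (0.01). Prdm9, with 5 and 9 counts, had the highest ratio (0.55), and its interval of -0.84 to 2.81 spanned no change. Rec8, given beside the set, had 33 and 44 counts (7.75 and 10.6 CPM).

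The fibroblast marker sum was 254 CPM in the epithelial-like and 4805 CPM in the mesenchymal-like library, and 12 of its 13 measured genes were at least 2-fold higher. The germ cell, cell division, mitotic recombination and cohesin regulator lists had medians of -0.33, -0.33, -0.29 and -0.32, beside -0.36 for the meiotic genes. With the ratios centred on the germ cell markers, the members' median was -0.03, with 12 members above 0 and 19 below. That of all genes was 0.27, with 23.7% below 0. Centring moves every gene by the same amount, so the members stayed as far below all genes as before. The part of the fibroblast transcripts in the members' lower share was not tested.

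**Figure D2:**
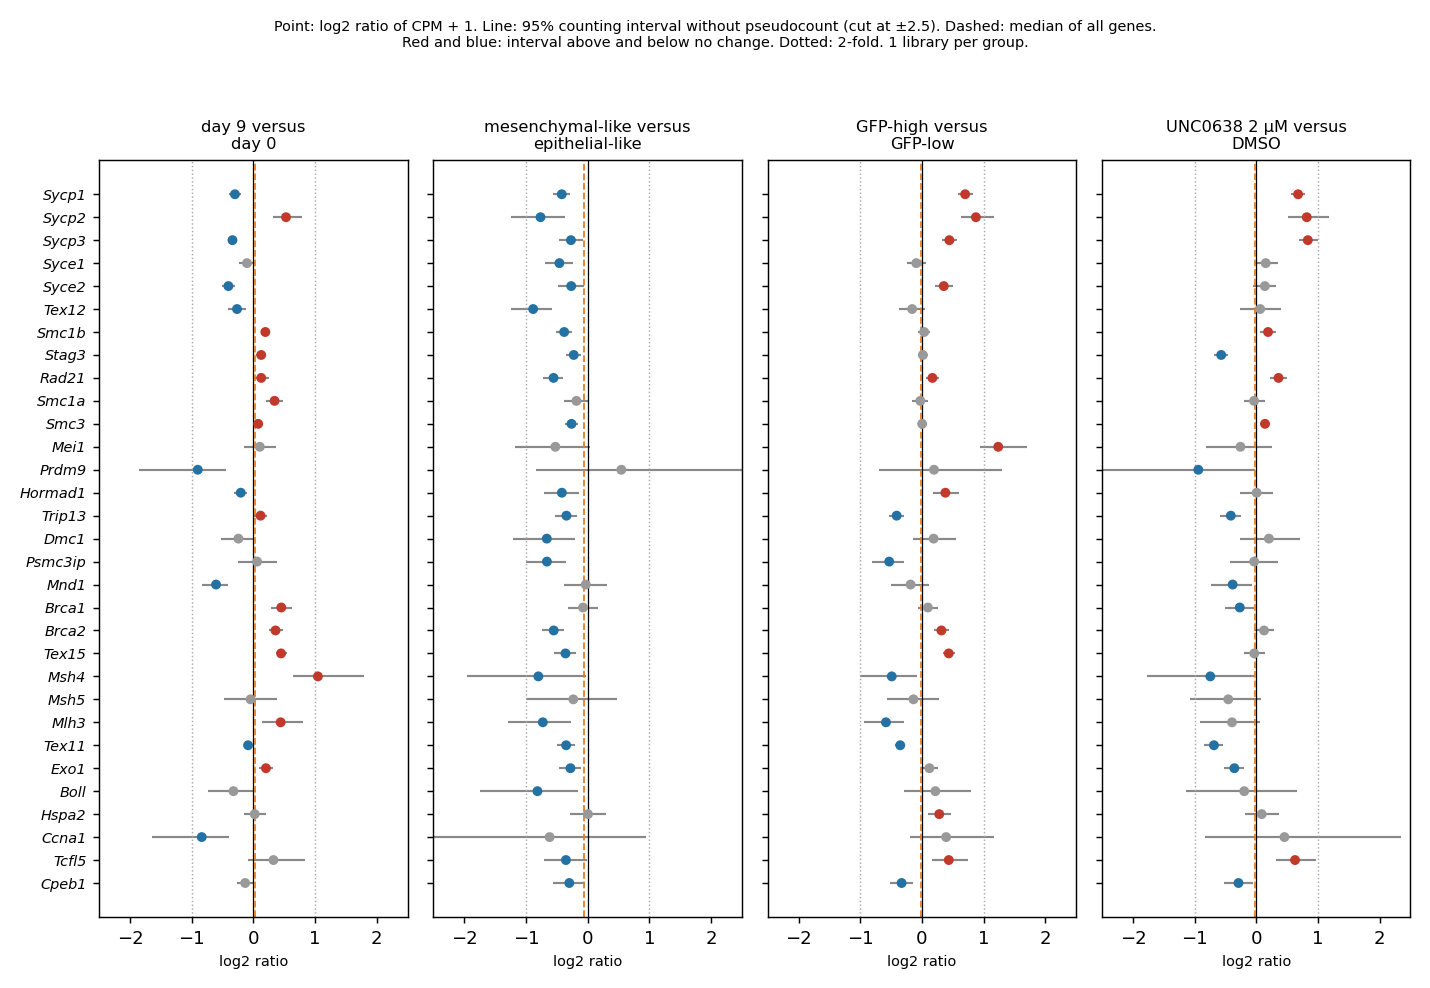
Log2 ratio of CPM + 1 (x axis) of the 31 genes (y axis) in 4 comparisons; lines are 95% counting intervals, dashed lines the median of all genes and dotted lines 2-fold. In the mesenchymal-like panel 29 of 31 points lie below 0, while in the other 3 panels members lie on both sides, with Msh4 (day 9) and Mei1 (GFP-high) past 2-fold.

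Between GFP-high and GFP-low cells, Mei1 differed most. It had 82, 211 and 241 counts, or 10.3, 16.7 and 25.6 CPM, in GFP-low, GFP-mid and GFP-high cells. The 3 values followed the order of the fractions, and the log2 ratio of GFP-high to GFP-low was 1.24 (0.95 to 1.69). It was the 1 member at least 2-fold higher, against 6.94% of all genes, and none was at least 2-fold lower, against 2.59%. As a check of the labels, Pou5f1 had 83.9, 176 and 367 CPM in the same order.

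The lateral-element and filament genes were also higher in GFP-high than in GFP-low cells. Sycp1 had 115, 214 and 187 CPM, with ratios to GFP-low of 0.89 (0.79 to 1.01) for GFP-mid and 0.70 (0.59 to 0.82) for GFP-high. Sycp2 had 21.3, 38.0 and 39.9 CPM, and Sycp3 111, 171 and 151 CPM, with GFP-high ratios of 0.87 (0.64 to 1.17) and 0.44 (0.33 to 0.57). For all 3 genes GFP-low was the lowest fraction, and for Sycp1 and Sycp3 the middle fraction was the highest. The central-element genes differed among themselves: Syce2 was at 0.35 (0.22 to 0.50), whereas the intervals of Syce1 and Tex12 included no change.

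Of 5 crossover genes, 3 had intervals below no change in GFP-high cells, against 29.9% of all genes. Mlh3 had 24.2, 21.5 and 15.8 CPM (-0.58, -0.93 to -0.30), Msh4 had 11.3, 9.19 and 7.75 CPM (-0.49, -1.01 to -0.08) and Tex11 had 293, 256 and 229.5 CPM (-0.35, -0.44 to -0.27). These 3 decreased across the fractions. Exo1 and Msh5 had intervals that included no change. Of the other roles, Psmc3ip had 36.5, 29.6 and 24.9 CPM (-0.53, -0.80 to -0.30) and Trip13 144, 120.1 and 108 CPM (-0.41, -0.54 to -0.29), while Tex15 had 169 CPM in GFP-low and 229 CPM in GFP-high cells (0.43, 0.34 to 0.54). The meiotic cohesins Stag3 and Smc1b had ratios of 0.02 and 0.04, with intervals of -0.06 to 0.09 and -0.06 to 0.13. Rec8 had 19.4, 18.5 and 24.1 CPM (0.30, 0.01 to 0.61).

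Over all 31 genes 11 intervals lay above no change, against 25.7% of all genes, and 6 below, against 29.9%. The members' median ratio was 0.12 and that of all genes -0.02. Macrophage markers summed to 1832 CPM in GFP-low and 216 CPM in GFP-high cells, and all 9 were at least 2-fold lower in the latter. Fibroblast markers summed to 83.8 and 205 CPM. The part of either in these ratios was not tested. Ratios were above 0 for 20 members, against 48.1% of all genes, and below 0 for 11; with TPM these counts were 23 and 8, and 39.3% of all genes were below 0. The germ cell markers ran from -1.57 (Gfra1) to 2.11 (Pou5f1, whose reporter set the fractions), and their median was -0.23. With the ratios centred on it, 25 members were above 0 and 6 below, and 31.1% of all genes were below 0. Mei1 was then at 1.47, Sycp2 at 1.10 and so past 2-fold, and the members' median was 0.35.

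No member was past 2-fold at 1 or 2 µM UNC0638, against 6.71% and 7.01% of all genes in either direction. At 0.5 µM 1 gene was at least 2-fold lower, against 2.13% of all genes, and none higher, against 1.58%. It was Prdm9, named after its values were seen because it was under the 50 counts set for naming: it had 20 counts with DMSO and 0, 13 and 7 counts at 0.5, 1 and 2 µM. With its 0 counts replaced by a floor of 3 counts per library, the difference from DMSO was 6.91-fold. That value leaves out the counting error of the 20 DMSO counts. On CPM + 1 the log2 ratio of Prdm9 at 0.5 µM was -2.32. Its value at 1 µM lay within counting error of DMSO (-0.61, -1.94 to 0.26), and at 2 µM it was at -0.94 (-2.80 to -0.02).

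At 2 µM none of the 6 synaptonemal complex genes had a ratio below 0, against 51.7% of all genes, and 3 had the interval above no change, against 18.0% of all genes. Sycp3 had 117 CPM with DMSO and 159, 211 and 210.3 CPM at 0.5, 1 and 2 µM. Every dose was above DMSO, with log2 ratios of 0.44 (0.29 to 0.60), 0.84 (0.70 to 0.99) and 0.84 (0.69 to 0.99), and the 2 upper doses were alike. Sycp1 had 218, 209, 255 and 349 CPM and was at 0.68 (0.57 to 0.79) at 2 µM, while at 0.5 µM its interval included no change. Sycp2 had 25.2, 34.1, 33.3 and 45.1 CPM and was at 0.82 (0.51 to 1.18) at 2 µM. Tex12 was highest at 1 µM, with 31.7, 38.3, 49.7 and 33.2 CPM, and at 2 µM its interval included no change. Syce1 and Syce2 were at 0.15 and 0.14 at 2 µM, with intervals that included no change.

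Crossover genes were lower at the top dose, and cohesin genes differed among themselves. All 5 crossover genes had ratios below 0 at 2 µM, against 51.7% of all genes, and 3 intervals lay below no change, against 20.9%. Tex11 had 206, 201, 203 and 128 CPM, so that only the top dose stood apart (-0.69, -0.84 to -0.54). Exo1 had 148, 144, 151 and 115 CPM (-0.35, -0.52 to -0.19), and Msh4 had 38, 33, 39 and 18 counts (-0.74, -1.78 to -0.03). Stag3 decreased at each step, with 324, 299.8, 283 and 218 CPM (-0.57, -0.69 to -0.45), whereas Smc1b, the SMC subunit of the same meiotic cohesin, was at 214, 214, 242 and 245 CPM (0.19, 0.07 to 0.32). Rec8 had 51, 47, 47 and 27 counts and a ratio of -0.64 (-1.45 to -0.02). Rad21, the kleisin that takes the place of REC8 in mitotic cohesin, had 158, 152, 157 and 203 CPM (0.36, 0.22 to 0.50). Trip13 had 150.3, 136, 164 and 113 CPM (-0.41, -0.58 to -0.25) and its substrate gene Hormad1 51.1, 56.0, 47.1 and 51.3 CPM (0.01, -0.26 to 0.27).

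In the order of the doses, Tcfl5 alone among the 31 genes increased at each step, against 6.5% of all genes, with 27.9, 29.5, 37.0 and 43.8 CPM (0.63, 0.32 to 0.97, at 2 µM). Stag3, Smc1a, Mnd1 and Brca1 decreased at each step, against 7.81% of all genes, and for Smc1a the range was only 124 to 120.5 CPM. All 3 doses were above DMSO for 6 genes, against 25.2%, and below it for 11, against 28.5%. The 3 ratios share the DMSO library. At 2 µM 7 intervals lay above no change, against 18.0% of all genes, and 9 below, against 20.9%, and the members' median ratio was -0.03, with -0.02 over all genes.

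The fibroblast marker sum went from 2577 CPM with DMSO to 808, 340 and 411 CPM at 0.5, 1 and 2 µM, and 13 of 13 genes were at least 2-fold lower at 1 µM. Their part in the members' ratios was not tested. Germ cell markers summed to 5406, 5812, 5574 and 5045 CPM. At 2 µM 15 members had ratios above 0 and 16 below. With the ratios centred on the germ cell markers these counts were 18 and 13, and the share of all genes below 0 was 47.2%, against 51.7% without it. Sycp3 was then at 0.88, Sycp2 at 0.86, Sycp1 at 0.72, Stag3 at -0.52 and Tex11 at -0.64. Cell division genes had a median of -0.33 at 2 µM and mitotic recombination genes one of -0.29.

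**Figure D3:**
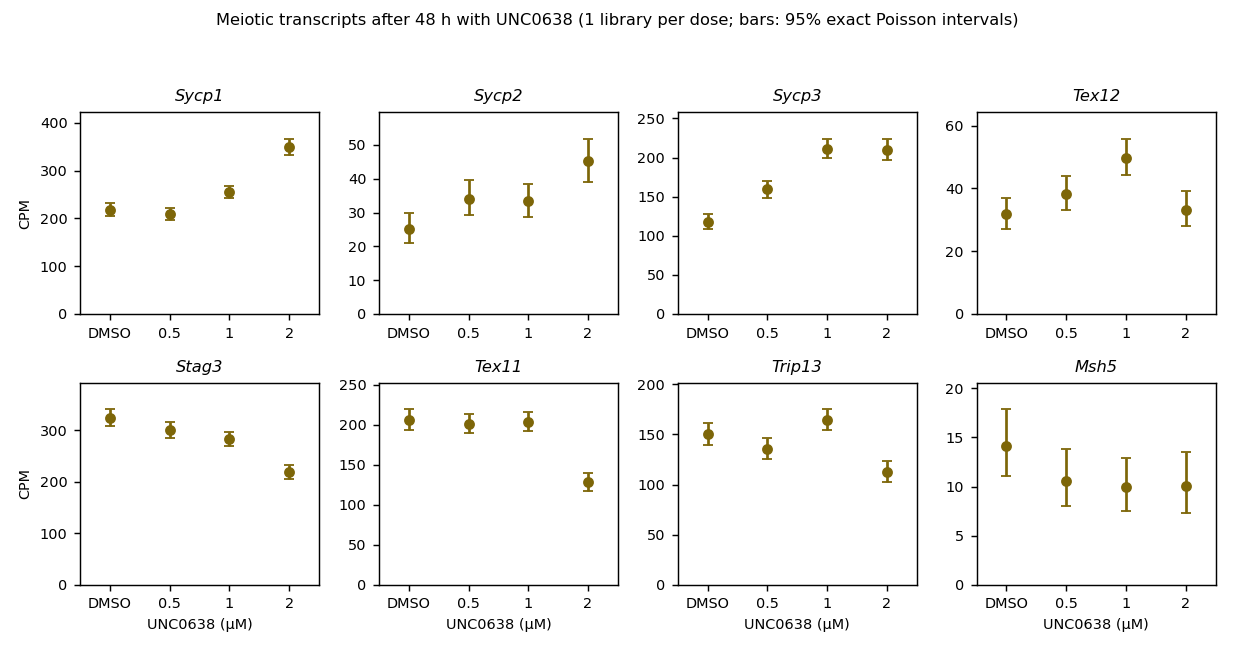
CPM (y axis, from 0) of 8 genes with DMSO and with UNC0638 at 0.5, 1 and 2 µM; each point is 1 library and bars are 95% exact Poisson intervals of its count. Sycp1, Sycp2 and Sycp3 are highest at 1 or 2 µM, Tex12 peaks at 1 µM, and Tex11 and Stag3 are lowest at 2 µM.

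Other genes of the same pathway were taken from lists. Of 36 further meiotic genes 32 were in the tables and 31 passed the filter. None was past 2-fold at days 4 or 9, between GFP-high and GFP-low cells or at 1 µM UNC0638. In the mesenchymal-like culture 4 were at least 2-fold lower, against 1.78% of all genes, and 29 of 31 had ratios below 0, against 54.4%. The 4, named after their values were seen, were Top6bl (17 and 3 counts in the epithelial-like and mesenchymal-like library), Hfm1 (7 and 0 counts), Brme1 (88 and 40 counts) and Hormad2 (62 and 28 counts). Centring on the germ cell markers raises each ratio by 0.33, which takes Brme1 and Hormad2 under 2-fold. Top6bl acts with SPO11, and Hormad2 is a relative of Hormad1. At 0.5 µM UNC0638 1 gene was at least 2-fold higher (Spdya, with 2 and 13 counts) and 1 was at least 2-fold lower, against 1.58% and 2.13% of all genes. At 2 µM 1 gene was at least 2-fold lower, against 7.01% of all genes past 2-fold in either direction: Meioc, needed to hold germ cells in meiotic prophase, had 24.2, 14.4, 22.7 and 9.62 CPM over the doses (-1.24, -1.87 to -0.81, at 2 µM). None of the 24 mitotic recombination genes or the 13 cohesin regulators was past 2-fold in the comparisons within an experiment.

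Of 12 measured regulators of meiotic entry, 2 were at least 2-fold higher in GFP-high than in GFP-low cells (Stra8 and Kit), against 6.94% of all genes, and 1 was lower (Nanos2, at -1.20), against 2.59%. None was past 2-fold in the mesenchymal-like culture. Centring on the germ cell markers raises each ratio of GFP-high to GFP-low by 0.23, which takes Nanos2 under 2-fold. Stra8, the retinoic acid target that starts meiosis, had 67.2, 133 and 179 CPM in GFP-low, GFP-mid and GFP-high cells (1.40, 1.27 to 1.55). With UNC0638 it was lower at every dose, with 30.5, 12.7, 17.5 and 18.3 CPM and ratios of -1.20 at 0.5 µM, -0.77 at 1 µM and -0.71 at 2 µM. So Stra8 was below DMSO in the libraries in which Sycp3 was above it. Of 15 repressor genes, 1 was at least 2-fold higher in GFP-high cells and 1 lower, against 6.94% and 2.59% of all genes: E2f6 had 43.4, 65.3 and 95.2 CPM across the GFP fractions (1.12, 0.95 to 1.32), and Cbx3, a reader of methylated histone H3 lysine 9, was at -1.17. The centring on germ cell markers takes Cbx3 under 2-fold as well. Mga, Pcgf6 and L3mbtl2 had GFP-high ratios of 0.26, -0.02 and 0.19, and L3mbtl2 was at -0.31 (-0.49 to -0.14) at 2 µM UNC0638. Max had 1.04, 1.61 and 2.60 CPM in the feeder-removal libraries and 6.87 to 27.7 CPM in the others, from 8 to 350 counts. Of all genes, 13.2% were likewise lower in all 3 feeder-removal libraries, and experiment and batch cannot be told apart. Ehmt2, which encodes the target of UNC0638, had 239.5, 256, 259 and 293 CPM over the doses (0.29, 0.18 to 0.41, at 2 µM).

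**Figure D4:**
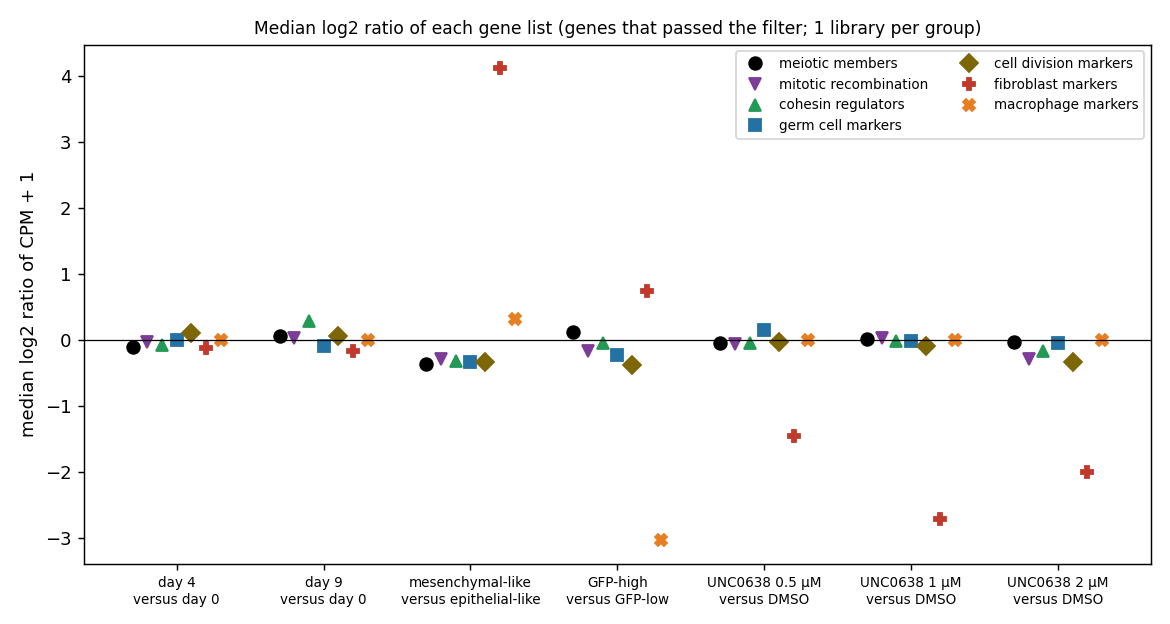
Median log2 ratio of CPM + 1 (y axis) of 7 gene lists in 7 comparisons (x axis), 1 library per group. In the mesenchymal-like culture the meiotic genes (-0.36) lie with the germ cell, cell division and recombination lists near -0.3 while fibroblast markers are at 4.11, and macrophage markers are at -3.03 in GFP-high cells. Elsewhere the meiotic median stays between -0.11 and 0.12.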

How the data were processed

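RNA was prepared by a modified Smart-seq2 procedure, per the labels' protocols. Reads were trimmed with Trim Galore and quantified with RSEM on mm10, per the submitters' processing notes; the aligner and annotation release are not given in the sources used here. The authors deposited 1 table per library with, per the file headers, an expected count (RSEM's estimated count, not normalized) and a TPM (a level the authors normalized for gene length and library size) for each gene.

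Expected counts were rounded, then scaled to CPM with edgeR 4.0.16 (TMM factors, R 4.3.3). The filter kept genes whose mean CPM over 12 libraries reached 1. For each pair of libraries the log2 ratio used CPM + 1, and a gene was called from a 2-fold ratio on; that pseudocount understates changes of low genes. The interval of a ratio is the 95% Clopper-Pearson interval of how its reads divide between both libraries, and that of a count is exact Poisson. Reads were amplified and carry no molecular identifiers, so intervals, like the floor of 3 counts, cover counting error only. With 1 library per group, no test was run. The steps were tested on simulated counts. The alternatives were size factors from DESeq2 1.42.0, scaling to the total count, TPM in place of CPM, a pseudocount of 0.1 or 5, keeping all genes, raising the filter to 10 CPM, and centring on germ cell markers.

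The members and lists were chosen with earlier results of these data known. Members named had at least 50 counts in the higher library and were past 2-fold or among the 3 highest or 3 lowest ratios, or shared a role with such a gene. Older symbols were matched through RefSeq names and transcripts (GRCm38.p6), and promoter windows came from RefSeq. Protein sequences and the 4 ATAC libraries were not used here. Scripts ran in Python 3.11.15 (scipy 1.17.1, pandas 2.3.3, numpy 2.4.6), and figures were drawn with matplotlib 3.10.9.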

Additional observations from a re-analysis of the deposited data

How the results depend on the processing

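Within an experiment, at most 1 member was past 2-fold in each comparison with a control or GFP-low library or between densities, so these counts move with single genes. At day 4 the count of 1 became 0 with the deposited TPM (where Msh4 was at 0.95), with a pseudocount of 5 and with a filter at 10 CPM, which removes Msh4. At day 9 it became 2 with a pseudocount of 0.1 and 0 with a pseudocount of 5 or the filter at 10 CPM. At 0.5 µM UNC0638 it became 0 with a pseudocount of 5 or the filter at 10 CPM, and with a pseudocount of 0.1 it became 1 at 2 µM and 1 in the mesenchymal-like culture. Centred on germ cell markers, 2 members were past 2-fold between GFP-high and GFP-low, with a median of 0.35, and the mesenchymal-like median was -0.032. That centring moved the median of all genes by 0.33, 0.23 and -0.16 in the mesenchymal-like, GFP-high and 0.5 µM comparisons and by 0.29 between DMSO and day 0, and TPM moved it by 0.11 at day 9 and 0.13 for GFP-high. With DESeq2 size factors, total counts or no filter, no count of members past 2-fold changed by over 1.5 times. No paired analysis was possible because each RNA group had 1 library. Genes under about 50 counts, such as Prdm9, Ccna1 and Spo11, have intervals too wide to show many differences below 2-fold.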
